A study of Drosophila melanogaster with 2 samples.

Results

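The genes described here are 10 listed proneural and neuroblast identity genes of Drosophila melanogaster, out of 13968 protein-coding genes on the main chromosome arms: ac, sc, l(1)sc, ase, wor, sna, esg, dpn, mira and pros. Each was given the summits, the highest points of the peaks, that lay in its gene body or for which its transcription start site (TSS) was the nearest protein-coding one and at most 10 kb away. The peaks came from chromatin immunoprecipitation sequencing (ChIP-seq) of fd59A, a forkhead-box transcription factor. Flies of 1 transgenic line carried fd59A with eGFP at its C terminus, and an anti-GFP antibody was used on sonicated chromatin (labelled size range 200 to 800) of whole prepupae, males and females pooled, with a labelled age of 24 day. The 2 samples, biological replicates 2 and 3, form a single group with separate biosample identities. The authors called peaks against a control that is not analysed here, so no comparison between conditions was made and no test was run. Whole animals were used, so the cells in which any site was bound are unknown, and peak lists hold no expression values with which to check for neural cells.

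Neural precursors in flies arise when proneural proteins, basic helix-loop-helix (bHLH) factors that bind E-box DNA as partners of Daughterless, raise cells of an epithelium above their neighbours, while Notch signalling holds the neighbours back. A neuroblast then divides asymmetrically. It renews itself under factors such as Deadpan and passes Prospero, carried by the scaffold protein Miranda, to the daughter that will stop dividing. The Snail-family zinc finger proteins Worniu, Snail and Escargot act in embryonic neuroblasts with overlapping functions.

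The sequence under the summits shows their base composition and how few of the searched motifs they hold. Each stretch below is the 101 bases centred on a summit, read 5′ to 3′ from the plus strand of the dm6 genome (RefSeq release of the same assembly). Capitals mark matches on either strand to any of 11 motifs, which are spelled out with their counts after the sequences. The first 6 belong to peaks of the authors' thresholded list, and the last pair to the strongest weaker regions of sc and l(1)sc, shown for contrast.
ac, chrX:379713-379813: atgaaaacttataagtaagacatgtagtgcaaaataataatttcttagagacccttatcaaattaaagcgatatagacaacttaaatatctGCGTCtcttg
ac, chrX:378484-378584: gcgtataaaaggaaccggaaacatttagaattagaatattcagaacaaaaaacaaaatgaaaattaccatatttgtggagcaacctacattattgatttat
ase, chrX:452866-452966: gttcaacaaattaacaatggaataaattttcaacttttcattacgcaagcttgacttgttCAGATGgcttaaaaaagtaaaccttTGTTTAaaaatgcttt
esg, chr2L:15337387-15337487: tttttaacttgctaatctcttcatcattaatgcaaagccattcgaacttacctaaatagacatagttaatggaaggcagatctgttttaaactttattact
pros, chr3R:11338440-11338540: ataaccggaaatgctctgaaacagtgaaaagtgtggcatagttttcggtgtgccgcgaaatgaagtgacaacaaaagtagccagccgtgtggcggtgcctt
pros, chr3R:11360427-11360527: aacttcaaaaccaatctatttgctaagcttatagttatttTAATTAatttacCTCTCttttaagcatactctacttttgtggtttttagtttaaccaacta
sc, chrX:386202-386302: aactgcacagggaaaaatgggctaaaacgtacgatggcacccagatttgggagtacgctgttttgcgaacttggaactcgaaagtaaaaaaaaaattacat
l(1)sc, chrX:406434-406534: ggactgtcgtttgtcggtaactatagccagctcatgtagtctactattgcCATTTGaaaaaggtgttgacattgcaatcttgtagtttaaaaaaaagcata

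GC content over these windows was 28.7% and 27.7% at the ac summits, 27.7% at ase, 29.7% at esg and 25.7% at the second pros summit. It was higher at the first pros summit, with 48.5%, and at the dpn summit, with 36.6%, whose window is not printed here. The weaker regions of sc and l(1)sc had 40.6% and 36.6%. Over the 7 summits in the thresholded list the mean was 32.1% ± 8.02 (SD, n = 7). Over all 5327 peaks of the thresholded list the mean was 33.4% ± 8.40 (SD over peaks). The forkhead core TAAACA was found at 1 of 7 summits of the listed genes (14.3%), the ase summit, where it is read on the minus strand and lies in the same window as the E-box CAGATG. Of all summits in the thresholded list 12.7% held TAAACA (Wilson 95% interval 11.8 to 13.6). Any E-box CANNTG occurred at 2 of 7 summits (28.6%), at ase and dpn, and at 34.7% of all. The alternate forkhead site GACGC was at 1 of 7, an ac summit, and 4.22% of all. The homeodomain site TAATTA and the GAGA factor site GAGAG were both at the second pros summit and at no other of the 7, against 9.89% and 10.2% of all summits. No summit of the listed genes held the longer forkhead forms GTAAACA (2.22% of all) and ATAAACA (4.66%), the E-box forms CAGCTG (2.38%), CAGGTG (1.90%) and CACGTG (0.582%), or the GATA site AGATAA (8.13%). A count of 0 of 7 allows a share of up to 42.9%, taken roughly as 3 counts of 7 and not from a Wilson interval. The longer forkhead forms contain TAAACA, and the E-box forms are cases of CANNTG. With 7 summits, differences of this size from the share of all peaks were not detectable.

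The thresholded list is the authors' set of pooled peaks kept after a filter on the irreproducible discovery rate (IDR), which scores how well ranks repeat between replicates, and is called the IDR list. Of the 10 genes, 5 had an IDR summit: dpn, ac, ase, pros and esg. The other 5 were sc, l(1)sc, wor, sna and mira. By the same rule 20.7% of all protein-coding genes had one. The listed genes stand in unusually wide stretches of genome, however. The bases the rule gives to a gene had a median of 15.2 kb for them and 5.26 kb for all protein-coding genes, and all 10 exceeded that overall median. Per length, the listed genes had 3.43 IDR summits in 100 kb against 4.24 over the stretches given to all protein-coding genes. The share of genes is thus higher, and the density over all 10 is not. That density is lowered by pros, which made up 89.1 of the 204 kb and held 2 of the 7 summits. The remaining summits lay in the 115 kb of the other genes, a density not below 4.24. No member had an IDR summit within 1000 bp of its own TSS. The 7 summits lay 1457 to 12311 bp from a TSS of their own gene (median 7831 bp). For all IDR summits the distance was taken to the nearest protein-coding TSS of any gene. Its median was 1928 bp, and 38.3% (interval 37.0 to 39.6) were within 1000 bp. These measures differ for the listed genes only at the second pros summit. It lay 7346 bp from a TSS shared by KP78a and KP78b, which are nested in pros. The comparison of distances takes no account of the wider stretches of the listed genes, which leave room for longer distances. A count of 0 of 7 within 1000 bp allows a share of up to 42.9%.

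**Figure D1:**
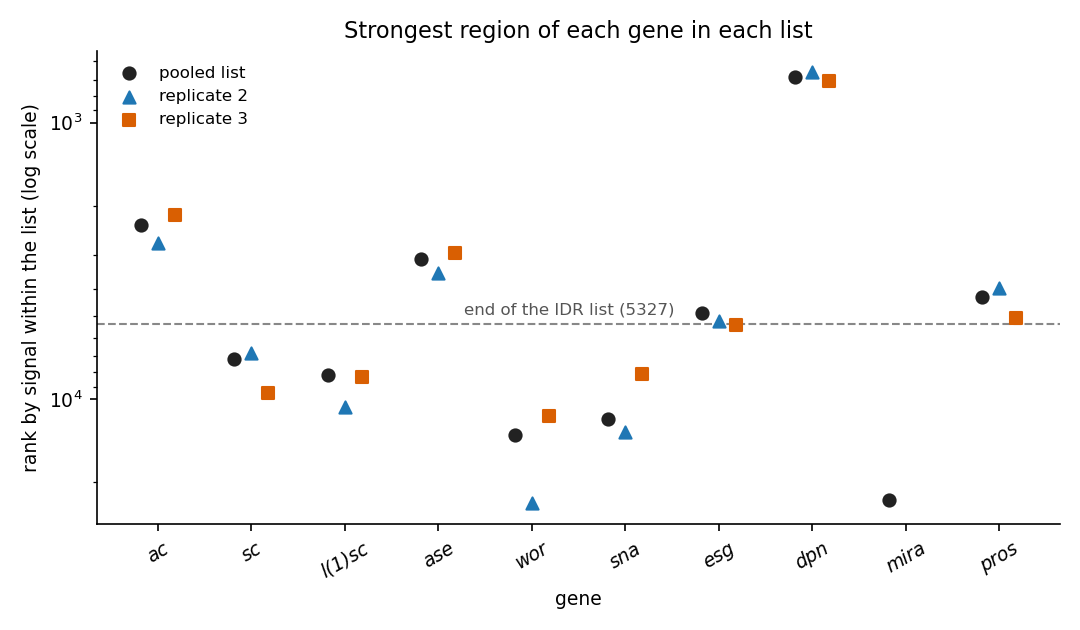
Rank by signal (log scale, strongest at the top) of the strongest region of each listed gene in the pooled list (circles), replicate 2 (triangles) and replicate 3 (squares). The dashed line is the length of the IDR list (5327). The 3 points of dpn lie above rank 1000, those of sc, l(1)sc, wor and sna lie below the line, and mira has a point in the pooled list only.

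Signal is the authors' own peak score, and its scaling may differ between lists, so ranks are used across them. Among the IDR peaks it ran from 106 to 2996 with a median of 193. The 7 summits of the listed genes had a median rank of 3746 of 5327, and 2 of them, at dpn and ac, were in the stronger part of the list, above its middle rank of 2664.

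The proneural genes ac, sc and l(1)sc lie together in the achaete-scute complex on the X chromosome, inside introns of the long gene CG32816, which is on the other strand. Only ac among them had IDR summits. The ac gene (370031 to 370947, plus strand) encodes Achaete, a proneural bHLH factor for bristle precursors. Its stronger summit lay 9732 bp downstream of the ac TSS in the stretch between ac and sc (peak 379551 to 379974). That peak had a signal of 214 and rank 2345 in the IDR list. It had signal 83.6 and rank 2731 in replicate 2, and signal 132 and rank 2149 in replicate 3. The second, 8503 bp downstream (378322 to 378745), had a signal of 145 and rank 3746. Replicate 2 gave it a signal of 68.6 and rank 3519, and replicate 3 a signal of 77.6 and rank 4067. Both replicates therefore ranked both ac sites within the length of the IDR list, and in the same order. When TSSs of noncoding genes were allowed to compete, neither summit was given to ac. Another region, 2893 bp upstream of the ac TSS, was the strongest of any listed gene that missed the IDR list (signal 99.1, rank 5735 in the pooled list), with a match in both replicates at ranks 7011 and 5981.

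The sc gene (396060 to 397497, plus strand) encodes Scute, a proneural factor that acts alongside Achaete in sense organ formation. It had 6 pooled regions and no IDR summit. The strongest, 9808 bp upstream of its TSS, had a pooled signal of 80.9 and rank 7155. It was matched at rank 6791 in replicate 2 and 9521 in replicate 3. The next IDR summit on that side, with signal 107 and rank 5267, lay 11856 bp upstream of sc, just outside the 10 kb limit, while the ac summit at 9732 bp was just inside it. l(1)sc (409721 to 410817, plus strand) encodes Lethal of scute, the proneural factor of embryonic neuroblasts. Its strongest region, 3237 bp upstream, had a pooled signal of 71.2 and rank 8164, with ranks of 10708 in replicate 2 and 8310 in replicate 3. The strongest region of either gene was not the nearest to its start. At sc the nearest, 2948 bp upstream, had a pooled signal of 46.2. The region in the coding exon of l(1)sc, 354 bp from its TSS, had a pooled signal of 34.5 and no match in replicate 2.

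**Figure D2:**
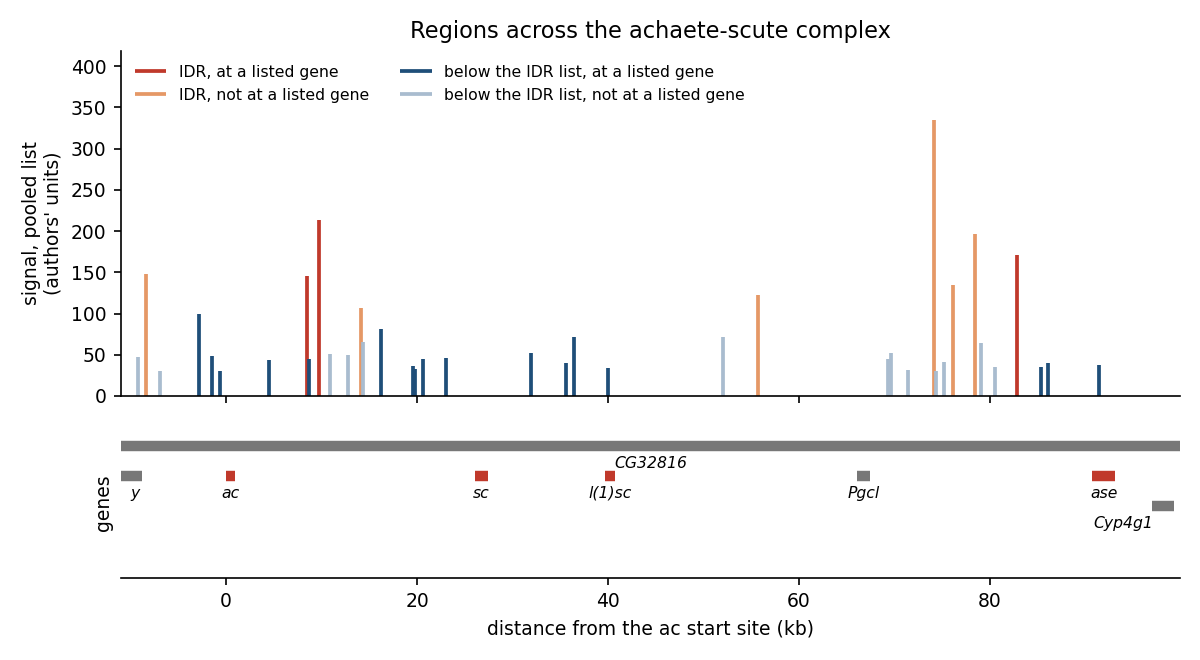
Signal of every pooled region (authors' units) across the achaete-scute complex against distance from the ac start site in kb, with protein-coding genes below (listed genes in red). Red lines are IDR peaks at a listed gene, orange lines other IDR peaks, and blue lines regions below the IDR list. The tallest line, near 74.2 kb, lies between Pgcl and ase and is given to neither ac nor ase.

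From ac to the end of ase, a stretch of 93.1 kb, the IDR list held 8 summits, each with a match in both replicates. This is 8.59 per 100 kb, against 3.87 per 100 kb over the main arms, in a stretch looked at after its values were seen. The rule gave 3 of the 8 to listed genes and left out 5. A group of 3 lay on the ase side of Pgcl, a neighbouring gene, at 6742, 8745 and 11038 bp from its TSS, with signals of 335, 135 and 196. The first of these had rank 1307, above every summit given to the 4 listed genes of the complex, and ranks of 1029 and 1514 in replicates 2 and 3. Another, with signal 123, lay in CG32816 at 2472 bp from one of its own start sites, and the fifth was the summit 11856 bp from sc.

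The remaining gene of the complex, ase (460747 to 463176, plus strand), encodes Asense, a bHLH factor made in nearly all neural precursors after they are selected. Its IDR summit lay 7831 bp upstream of the TSS (452704 to 453127). It had a signal of 171 and rank 3104, with signal 68.9 and rank 3490 in replicate 2 and signal 102 and rank 2964 in replicate 3. The summits in the replicates lay 16 and 7 bp from it. None of the other 3 pooled regions of ase had a signal above 40.0, and the 1 inside its coding exon (38.0) had no match in replicate 3.

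The peak of dpn was the strongest of all the listed genes. dpn (2R, 8228971 to 8232330, minus strand) encodes Deadpan, a Hairy-related bHLH repressor that keeps neuroblasts self-renewing. Its IDR peak (8230763 to 8230993) had its summit in an intron, 1457 bp downstream of the TSS, and was 231 bp wide, while the other 6 peaks were 424 bp wide. The same position is annotated with sisRNA:4, a noncoding RNA gene on the same strand, and the summit lay within 500 bp of a noncoding start site. The signal was 488 and the rank 685 of 5327. Replicate 2 had it at signal 218 and rank 657, and replicate 3 at signal 274 and rank 705. The 3 ranks lie close together, and no other listed gene had a peak among the 1000 strongest of any of these lists. The rule gave dpn only 5.83 kb, the least of the 10 genes, with no other pooled region in it. Replicate 3 alone listed a region 309 bp upstream of the dpn TSS, with a signal of 33.5.

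The Snail-family genes esg, wor and sna stand in this order within 144 kb of chromosome arm 2L. esg (15333866 to 15336138, plus strand) encodes Escargot, known also for keeping imaginal cells diploid and for its part in intestinal stem cells. It had 1 IDR summit, 3571 bp downstream of its TSS and beyond its 3′ end (15337225 to 15337648), with a signal of 115 and rank 4873. Its ranks were 5219 in replicate 2 (signal 49.5) and 5374 in replicate 3 (signal 60.1), the latter just past the length of the IDR list. A weaker region 4380 bp upstream (pooled signal 82.8, rank 6983) was matched in replicate 2, but the nearest replicate 3 summit was 110 bp away, beyond the 100 bp allowed for a match. wor (15423297 to 15425580, minus strand), whose product Worniu is made in neuroblasts, had 3 pooled regions and no IDR summit. The strongest of these had a signal of 47.4 and rank 13431, and it was matched in replicate 3 only. sna (15476593 to 15478260, minus strand), the mesoderm and neuroblast factor that gives the family its name, had 3 pooled regions too, with a highest signal of 52.1 at rank 11796. That region lay 9196 bp downstream of the sna TSS, at the start of a noncoding gene, and was also matched in replicate 3 only.

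Between these genes, however, lay many of the stronger peaks of the stretch. Of 12 IDR summits from esg to sna, 1 was given to esg, 1 to CG44869, a neighbour of wor, and 10 had no protein-coding TSS within 10 kb. The 12 amount to 8.31 per 100 kb against 3.87 over the main arms, in a stretch that was also looked at after its values were seen. That density rests on a run of 7 summits. Outside the run the other 5 summits amount to 3.65 per 100 kb, below the value of the main arms. The run spanned 7.08 kb (15385280 to 15392786 for the peaks), 49.4 kb beyond the end of esg and 30.7 kb short of wor. Signals in the run were 157 to 479. The strongest had rank 698, close to the rank of the dpn peak, and ranks of 718 and 745 in replicates 2 and 3. In the run 6 of 7 summits were matched in both replicates, and the exception had a match in replicate 2 only. That exception lay 51.6 kb and its neighbour in the run 51.8 kb from the esg TSS, and these 2 peaks overlap, so they are not separate stretches of DNA. The run was picked out after its values were seen. With the limit raised to 20 kb, a setting chosen after the data were seen, 7 of the 10 listed genes had an IDR summit, sc and sna being added, against 21.4% of all genes. The run between esg and wor was outside that limit as well.

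**Figure D3:**
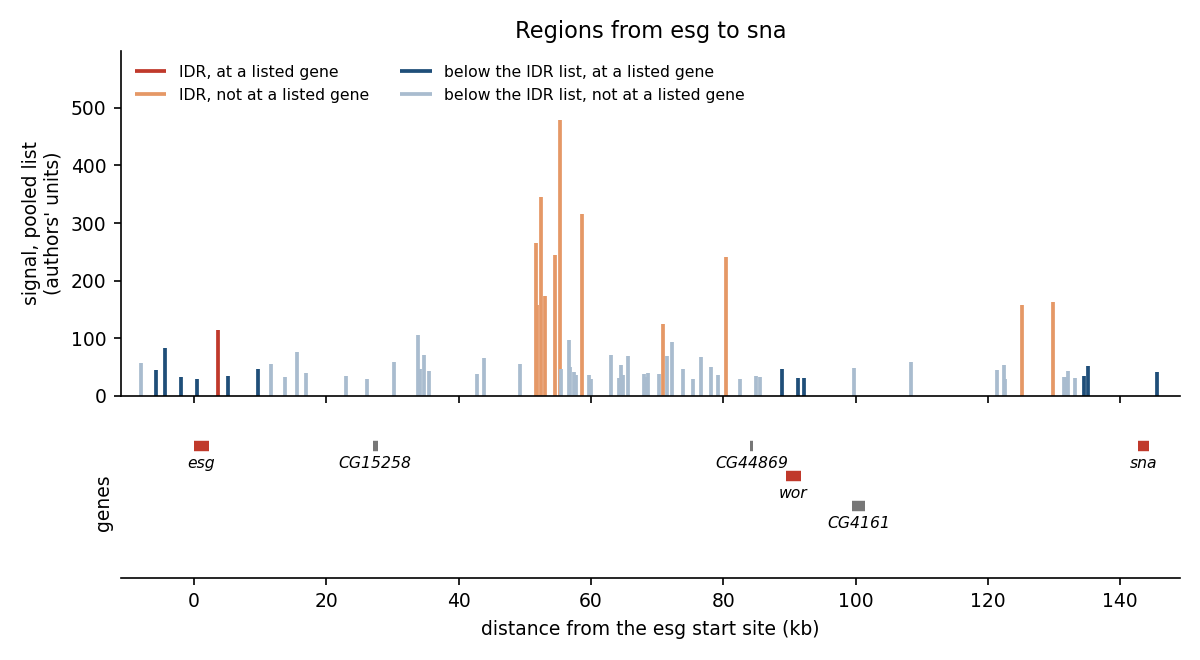
Signal of every pooled region (authors' units) from esg to sna against distance from the esg start site in kb, with protein-coding genes below (listed genes in red). Red marks the IDR peak at esg, orange other IDR peaks, and blue regions below the IDR list. The 4 tallest lines (479, 345, 315 and 266) belong to the run of 7 between 51.6 and 58.7 kb, away from all 3 listed genes, while a line at 80.4 kb (241), outside the run, is taller than 2 lines in it (157 and 174).

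Of the genes for asymmetric division, pros had weak IDR peaks and mira none. pros (3R, 11328480 to 11407627, plus strand) encodes Prospero, a homeodomain factor that ends self-renewal in the neuroblast's daughter. It has 4 annotated start sites and a gene body of 79148 bp, by far the longest of the listed genes. The stronger IDR summit lay in an intron 3510 bp downstream of the nearest of these sites (11338278 to 11338701), with a signal of 129 and rank 4280. It had signal 61.8 and rank 3968 in replicate 2, and signal 63.3 and rank 5074 in replicate 3, with summits at most 1 bp apart from the pooled one. The other lay 12311 bp upstream of the last start site, also in an intron (11360265 to 11360688). That peak had a signal of 111 and rank 5063, with rank 4138 in replicate 2 (signal 59.7) and rank 5967 in replicate 3 (signal 54.4). Its nearest TSS, shared by the nested genes KP78a and KP78b, was 7346 bp away, so the summit belongs to pros by gene body only. Both lie near the end of the IDR list, whose lowest signal was 106.

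In the pooled list pros had 24 regions, of which 20 were in the gene body: 15 in introns, 3 in coding exons and 2 in the 3′ UTR. With 2.69 in 10 kb this is near the 2.28 over the stretches of all protein-coding genes. Of the 24, 7 had a match in both replicates, against 42.2% of all pooled regions and 37.3% of those at the listed genes. These shares include IDR peaks, while 22 of the 24 were below the IDR list. Of all regions below it, 30.9% had a match in both replicates. mira (19931799 to 19935120, 3R, minus strand), which encodes Miranda, the scaffold that takes Prospero to the basal side of a dividing neuroblast, lies inside Hs6st. It had 1 pooled region, with a signal of 33.7 and rank 23105, 2902 bp upstream of the mira TSS in a coding exon of Hs6st. No replicate listed a match, and mira was the only member with no region in either replicate list.

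**Figure D4:**
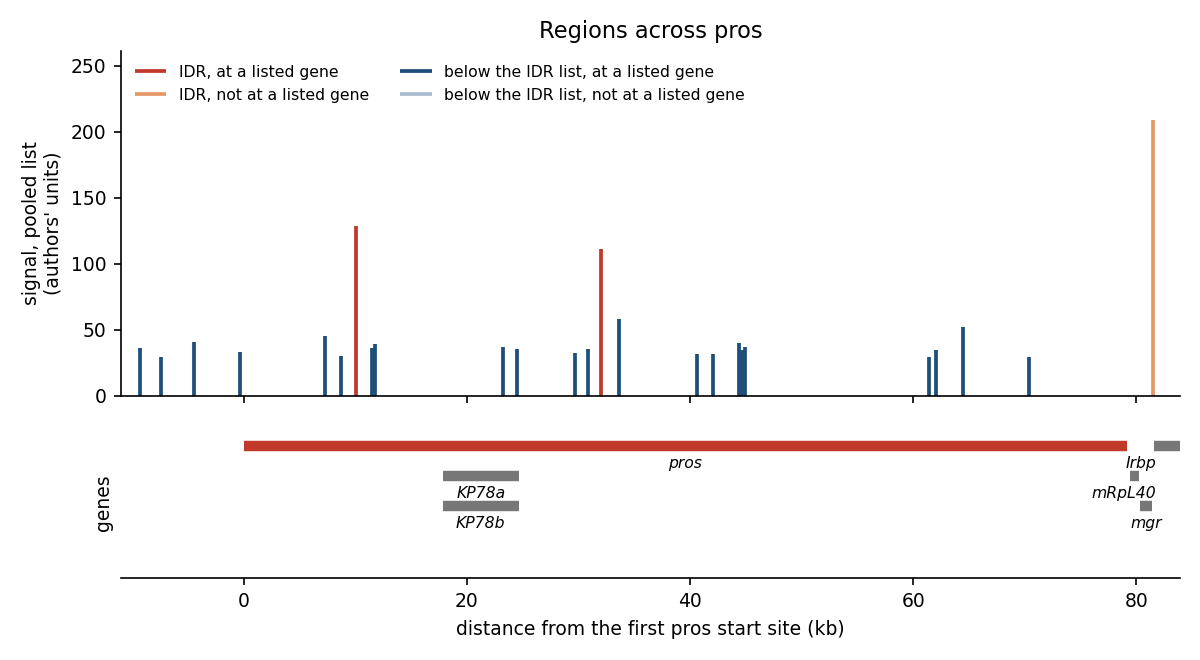
Signal of every pooled region (authors' units) along pros against distance from its first start site in kb, with protein-coding genes below (pros in red). Red marks the 2 IDR peaks at pros, signals 129 and 111, and blue the regions below the IDR list, with signals of at most 58.1. The orange line past the end of pros is an IDR peak between the start sites of mgr and Irbp.

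In the pooled list in full, all 10 genes had at least 1 region, 59 in total, against 56.5% of all protein-coding genes with one. Per length the listed genes had 2.89 pooled regions in 10 kb against 2.28 over the stretches of all protein-coding genes. This is the opposite order from the density of IDR summits with pros included. In the replicate lists 9 of 10 had one, against 61.8% of all genes in replicate 2 and 54.0% in replicate 3. Of the 59, 52 were below the IDR list, with signals from 29.2 to 99.1 and a median of 36.6, against a median of 40.3 for all such regions. Of the 52, 5 were within 500 bp of the gene's own TSS, and the highest signal among those 5 was 40.0. The share of all regions below the IDR list that lay so near a TSS was not computed.

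Agreement between the replicates was high for the IDR summits, which the authors' filter had chosen for it, and lower for the rest. All 7 IDR summits of the listed genes had a summit within 100 bp in both replicates (Wilson 95% interval 64.6 to 100%), as did 92.7% of all IDR summits. The distance to the replicate summit was 0 to 50 bp in replicate 2 and 1 to 28 bp in replicate 3. In 5 of the 7 the match also ranked within the length of the IDR list in both replicates, against 74.6% of all IDR summits. The exceptions were the esg summit and the second pros summit, both in replicate 3. Of the 52 weaker regions 15 had a match in both (28.8%, interval 18.3 to 42.3), near the 30.9% of all regions below the IDR list. For the 22 regions with a match in each replicate, Spearman's rho between the signals was 0.89, against 0.81 over all 12314 such regions. These are descriptions across sites that share the 2 libraries.

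**Figure D5:**
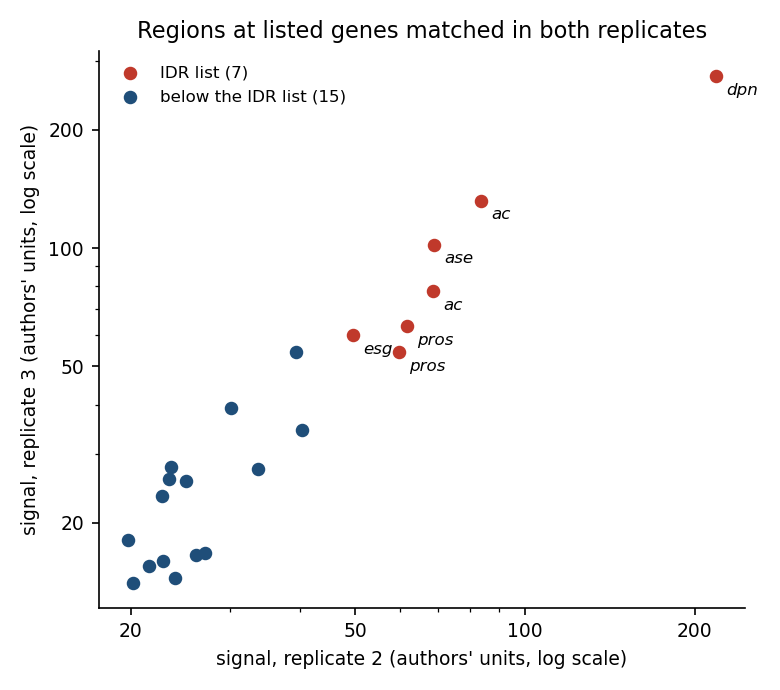
Signal in replicate 2 against signal in replicate 3 (authors' units, log scales) for the 22 regions of listed genes with a match in both replicates. Red points are the 7 IDR peaks, labelled by gene, and blue points the 15 regions below the IDR list, and dpn stands apart at the upper right with 218 and 274.

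Related genes were taken from 3 lists, and the share with an IDR summit was above the 20.7% of all genes in each, as it was for the listed genes (5 of 10). These shares take no account of gene length: ush, lola and scrib, for example, have bodies of 64.3, 61.4 and 67.7 kb, though Kah has 6.45 kb. Of 19 bHLH partners and regulators of proneural genes, 9 had an IDR summit (47.4%). The strongest were at ush (signal 2841), a GATA cofactor gene that limits proneural expression, at chn (1205), a zinc finger gene that promotes bristle formation, at N (594), the Notch receptor gene, and at h (524), a repressor gene of the Hairy class, which the annotation names hry. da, the common bHLH partner, had neither an IDR summit nor a pooled region. The proneural genes of other sense organs, ato and amos, and the bHLH gene cato had no IDR summit.

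Of 20 transcription factor genes of neuroblasts and other neural precursors, 12 had an IDR summit (60.0%), led by lola (754), zfh1 (712), grh (514) and Kah (457). grh encodes Grainyhead, a late neuroblast factor, and its strongest summit lay 215 bp from a start site. Of 18 genes of the asymmetric division machinery, 8 had one (44.4%). brat, which encodes a growth-inhibiting cargo of Miranda, had 11 IDR summits, the strongest with signal 817. numb, which encodes an inhibitor of Notch, had 3 (strongest 747), scrib, a polarity gene, had 4 (574), and loco, a G protein regulator gene, had 2 (360). stau, whose product is another cargo of Miranda, and pins, par-6 and pon, whose products act in spindle orientation, polarity and Numb localisation, had neither an IDR summit nor a pooled region. The strongest pooled signals at mira and pros, 33.7 and 129, were below those at brat and numb, the strongest of this list. The signal at pros was also below that at every other of the 8 genes with an IDR summit except Galphai (113), the weakest. The Galphai peak had no match in replicate 2. The remaining genes of the list had no IDR summit.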

How the data were processed

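Peak lists of ChIP-seq in fd59A-eGFP prepupae were used, per the labels for 2 biological replicates. Per the file descriptions, the authors supplied, for builds dm6 and dm3, 1 list of candidate regions for each replicate, 1 list from pooled alignments called against a control, and the pooled peaks left after IDR thresholding, the caller and threshold being not given in the sources used here. Signal, as deposited by the authors, ranked the peaks within a list. The deposited −log10 q values broke ties and gave an alternative ranking. No list states how many reads lie behind it, so depth is unknown, and intervals cover counting error only.

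The 4 dm6 lists were joined to Ensembl release 115 gene models and RefSeq sequence of the same assembly. The dm3 lists were not used, since the annotation is of dm6. Summits matched if within 100 bp. Motifs were sought on both strands within 50 bp of a summit, and places refer to protein-coding and noncoding gene models. Related gene lists held 57 genes, of which h and Dl were matched through a current name. The text names every listed gene, its neighbours at a summit, the 4 genes of each related list with the strongest IDR summit, and some genes without one. Members and lists were chosen with earlier results of these data known. The assignment, matching and motif code was tested on planted positions. Alternatives varied the list, threshold, distance limit, assignment, match and window. Python 3.11.15, numpy 2.4.6, pandas 2.3.3, scipy 1.17.1 and matplotlib 3.10.9 were used.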

Additional observations from a re-analysis of the deposited data

How the results depend on the processing

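The count of 5 listed genes with an IDR summit, and of 7 summits, depends on the rule. In the pooled list in full it was 10 genes and 59 summits. It was 2 genes and 2 summits in the stronger part of the IDR list, cut at its middle, where 12.6% of all protein-coding genes had one. Among the 1000 strongest peaks it was 1 and 1, against 5.96% of all genes. With a 5 kb limit it was 3 genes and 4 summits (19.5% of all genes), and with a 1 kb limit 2 and 3 (16.9%). By gene body only it was 2 and 3 (11.4%). The distance limits did not apply to summits in a gene body. The summits kept at 1 kb, at dpn and pros, were kept by gene body, since none lay within 1000 bp of its own TSS. The ac and ase summits lie beyond 5 kb. With TSSs of noncoding genes it was 4 and 5 (19.6% of all genes). Taking the strongest peaks of 1 replicate alone gave 4 to 5 genes, esg being lost without replicate 2, and 5 to 7 summits. The share of all genes was then 21.1% without replicate 2 and 20.1% without replicate 3. The 20 kb limit, chosen after the data were seen, gave 7 genes and 10 summits, against 21.4% of all genes. Leaving out CG32816 changed neither of the main counts. The share matched in both replicates was 71.4% when matches had to be among the strongest peaks of each replicate, and 100% at 50 bp, at 250 bp and by overlap. The median rank was 3519 to 4067 in the replicates. Signals in the replicates, on their own scales, were 83.6 to 132 at ac, 68.9 to 102 at ase, 49.5 to 60.1 at esg, 218 to 274 at dpn and 61.8 to 63.3 at pros. In the flanks 250 bp away, TAAACA fell to 0% to the left, GACGC and TAATTA to 0% on both sides, and GAGAG to 0% to the left. To the right, TAAACA stayed at 14.3%, GTAAACA went from 0% to 14.3%, GAGAG from 14.3% to 42.9% and CANNTG from 28.6% to 14.3%. In a window of 100 bp either side CACGTG went from 0% to 14.3% and CANNTG to 42.9%. The cause of these differences was not tested beyond the rule's own construction. No paired analysis was possible because the 2 replicates form 1 group and no test was run. Depth is unknown.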
